A study of Mus musculus with 62 samples.

Results

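Mice that carried transgenes modelling Alzheimer's disease were compared with mice that carried none, at 6 months of age and without Nlrp3 in both groups. The 9 libraries were chosen by their labels alone, out of 62 in the series. The group named APPPS1_NLRP3_6m (genotype APPPS1_NLRP3, 5 libraries, replicates 25, 28, 29, 30 and 31) was set against the group named NLRP3_6m (genotype NLRP3, 4 libraries, replicates 26, 27, 32 and 33). All 9 were RNA-seq libraries of CD11b+ cells, which the series title calls microglia. That title gives the genotypes as APP/PS1.NLRP3-/- and NLRP3-/-. The rest of the series holds wild-type (WT) and APP/PS1 mice with intact Nlrp3 and the ages of 4 and 12 months. The labels name neither the APP/PS1 line nor the promoter of its transgenes, and they do not say how the CD11b+ cells were isolated or whether each library is a separate animal. The p-values therefore measure only the spread between libraries, estimated here over all 62 of the series, and this spread may be technical.

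Microglia are the resident macrophages of the brain. Around amyloid plaques, mouse microglia are known to take on a state called disease-associated, in which genes of lipid handling, lysosomes and the receptor pair Trem2 and Tyrobp are high. Nlrp3 is the sensor of an inflammasome, a complex that activates caspase-1, which cuts the precursors of interleukin-1 beta and interleukin-18. That cleavage takes place on the proteins, whereas RNA-seq reads the level of the transcripts.

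Nlrp3 (ENSMUSG00000032691, chr11:59541568-59566956 on the + strand in GRCm38, the assembly also called mm10) lay at 0.0592 to 1.02 CPM against 0.244 to 0.715 CPM in APPPS1_NLRP3_6m and NLRP3_6m, where CPM is the gene's count scaled to a common library size. Depth was 16062135 to 24480533 counts per library with the transgenes and 15336710 to 20005202 without. Sex, read from Xist and 4 Y-linked genes, was 2 female and 3 male against 3 female and 1 male. The summed level of 10 microglial identity genes was 35265 to 46314 CPM against 34440.5 to 38521 CPM, and none of these genes was at 0 in all 9 libraries. Replicate 31 had the lowest sum of 23 immediate-early genes among the 9 libraries (10105 CPM, against 15130.3 to 26782 CPM in the other 4), and 10105 to 26782 CPM against 15279 to 21041 CPM were the ranges with and without transgenes. TMM size factors did not overlap between the groups (0.859 to 0.978 against 1.056 to 1.088).

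Of 19865 genes tested, 1618 were called at an adjusted p under 0.05 with edgeR's quasi-likelihood test (8.14% of genes), 1229 higher with the transgenes (6.19%) and 389 lower (1.96%). The groups did not overlap in 1403 genes that lay higher (7.06%) and 788 that lay lower (3.97%). The split of 76% higher depends on the scaling. RLE size factors gave 850 higher and 1005 lower (45.8% higher), DESeq2 gave 922 and 1177 (43.9%), and library totals without TMM, a setting chosen after seeing the data, gave 803 and 1851 (30.3%). These settings moved the median log2 difference of all genes from -0.0355 to -0.149, -0.149 and -0.215. One library of the series, in the group APPPS1_6m, held 659 counts, so that RLE and DESeq2 size factors rested on 463 genes above 0 in every library. Without it they rested on 13600 genes and gave 1115 higher against 477 lower (70%, RLE) and 1336 against 749 (64.1%, DESeq2), both added after seeing the data. No named gene that was called changed sign under any of these settings. Without replicate 31 the count was 1034, and it was 584 and 735 in libraries with the second title number 1 and 2 alone.

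**Figure D1:**
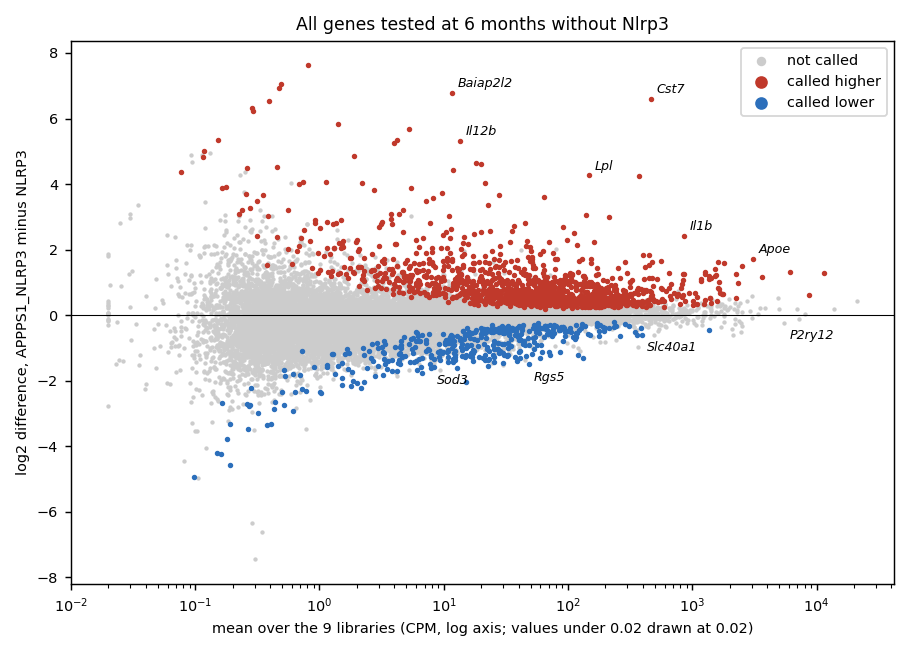
Each point is 1 of the genes tested, placed by its mean level over the 9 libraries (x, CPM on a log axis, values under 0.02 drawn at 0.02) and its log2 difference, transgenes minus none (y). Red points are the 1229 genes called higher and blue points the 389 called lower. Cst7 stands at 6.60 and Apoe at 1.73, whereas Rgs5 stands at -1.50.

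The products of the transgenes cannot be told apart from the mouse genes by these counts, since the labels do not say which sequences the transgenes carry. App, the gene of the amyloid precursor protein, lay at 272 to 334 CPM against 261 to 296 CPM (0.11 ± 0.12, adjusted p = 0.66, written here and below as the log2 difference ± its standard error). Prnp, the gene of the prion protein, lay at 119, 90.2, 88.3, 120.4 and 99.98 CPM in APPPS1_NLRP3_6m and 66.7, 81.1, 65.3 and 74.1 CPM in NLRP3_6m. In this and later sentences the values follow the order of the replicates given in the opening. The lowest of the 5 Prnp values lay above the highest of the 4, yet the difference did not pass the test (0.54 ± 0.21, adjusted p = 0.100). Thy1, a neuronal surface protein, was near 0 in all 9 libraries (0 to 1.67 CPM against 0.366 to 1.91 CPM).

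The counts of each list are set against the 6.19% of all genes called higher and the 1.96% called lower. All 25 disease-associated genes tested rose, with a median log2 difference of 2.21 beside -0.0355 over all genes, and 24 of the 25 did not overlap between the groups. Among their receptors, Tyrobp, the signalling adaptor of Trem2, was measured at 2732, 1861, 2167, 2284 and 3817 CPM in APPPS1_NLRP3_6m and 830.4, 852, 854 and 843 CPM in NLRP3_6m. The 4 values without transgenes lay close together, and every transgenic library was far above them (1.60 ± 0.24, adjusted p = 4.1e-06). Trem2, the lipid-sensing receptor itself, lay at 1199 to 2041 CPM against 671 to 824 CPM (1.03 ± 0.20, adjusted p = 0.00028). Clec7a, the beta-glucan receptor dectin-1, was at 698, 513, 683, 505 and 827 CPM in APPPS1_NLRP3_6m and 43.9, 33.8, 22.6 and 35.4 CPM in NLRP3_6m. The groups were far apart at every library, and the difference was 4.24 ± 0.44, adjusted p = 2.9e-09. Axl, a receptor tyrosine kinase for dying cells, was at 311, 182, 215, 186 and 249.6 CPM in APPPS1_NLRP3_6m and 33.3, 21.5, 21.6 and 34.2 CPM in NLRP3_6m. No library of one group reached into the range of the other (3.04 ± 0.38, adjusted p = 2.0e-07). Itgax, the integrin subunit CD11c, lay at 69.1 to 139 CPM against 7.42 to 10.4 CPM (3.61 ± 0.44, adjusted p = 1.2e-07).

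Cst7, which encodes the cysteine protease inhibitor cystatin F, had the largest called difference of the 25 genes of this list. It was measured at 1042, 454, 912, 712 and 1021 CPM in APPPS1_NLRP3_6m and 9.59, 6.34, 7.86 and 10.2 CPM in NLRP3_6m. Replicate 28 was the lowest transgenic library and still stood above every library without transgenes (6.60 ± 0.65, adjusted p = 8.7e-10). Lpl, the lipoprotein lipase, was at 285, 209, 215, 242 and 330.3 CPM in APPPS1_NLRP3_6m and 16.7, 9.21, 13.4 and 13.5 CPM in NLRP3_6m. The groups did not overlap, and the difference was 4.27 ± 0.45, adjusted p = 2.9e-09. Apoe, the main lipoprotein of the brain, was already at 1118 to 1637 CPM without transgenes and lay at 3383 to 5643 CPM with them (1.73 ± 0.34, adjusted p = 0.00033). Ank, a transporter of pyrophosphate and citrate, lay at 224 to 444 CPM against 38.3 to 52.1 CPM (2.98 ± 0.35, adjusted p = 3.3e-08).

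Secreted factors of the same list moved in the same direction. Csf1, the growth factor that maintains microglia, was at 309, 199, 306, 237 and 193 CPM in APPPS1_NLRP3_6m and 66.04, 56.1, 45.2 and 44.4 CPM in NLRP3_6m. The lowest transgenic library was replicate 31, and it lay above the highest library without transgenes (2.25 ± 0.31, adjusted p = 1.3e-06). Igf1, the insulin-like growth factor, lay at 55.3 to 103 CPM against 8.19 to 11.7 CPM (2.82 ± 0.43, adjusted p = 8.3e-06). Spp1, which encodes osteopontin, varied more among the transgenic libraries (225, 70.8, 117, 146 and 172 CPM in APPPS1_NLRP3_6m and 29.1, 18.3, 20.9 and 22.1 CPM in NLRP3_6m), with replicate 25 the highest and replicate 28 the lowest (2.70 ± 0.55, adjusted p = 0.00049). Gpnmb, a glycoprotein of lipid-laden macrophages, was the member whose groups overlapped. It was measured at 29.6, 1.53, 6.54, 4.88 and 18.5 CPM in APPPS1_NLRP3_6m and 0.179, 0.366, 2.25 and 1.31 CPM in NLRP3_6m. Replicate 28 lay below the highest library without transgenes, and the call (3.50 ± 0.94, adjusted p = 0.011) was lost without replicate 25 (adjusted p = 0.061) or without replicate 27 (adjusted p = 0.054). Further members, Cd63 of late endosomes (1.65 ± 0.22, adjusted p = 9.1e-07) and Lgals3, which encodes galectin-3 (2.21 ± 0.33, adjusted p = 5.6e-06), rose as well.

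**Figure D2:**
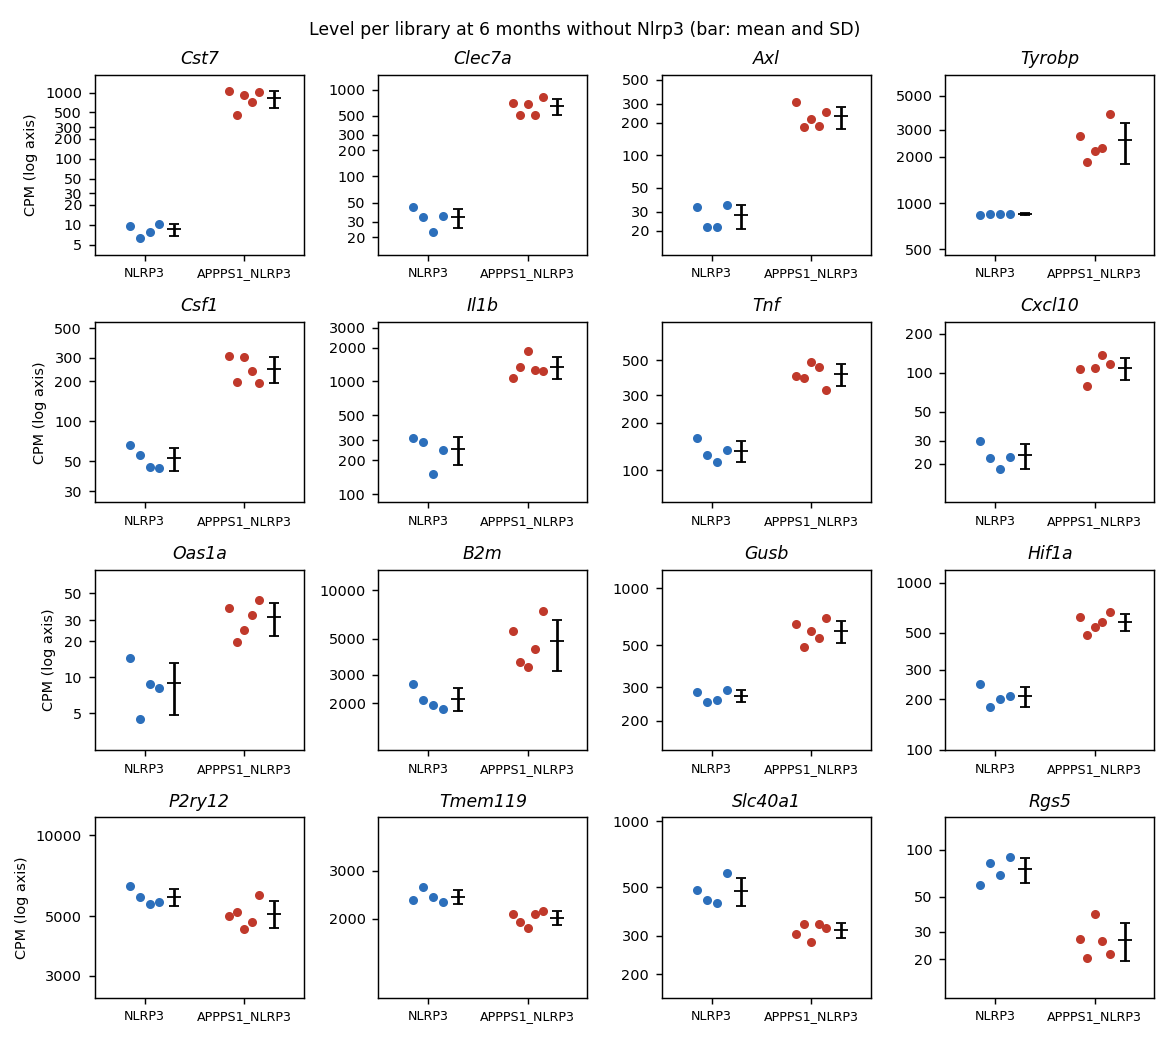
Each panel shows 1 gene, with its level in each of the 4 NLRP3_6m libraries (blue) and 5 APPPS1_NLRP3_6m libraries (red) in CPM on a log axis that differs by panel, and the mean and SD in black. Cst7, Clec7a and Axl are far higher in every red point, whereas P2ry12 overlaps and Slc40a1 and Rgs5 lie lower.

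Among genes outside these familiar groups, several that were nearly unread without transgenes stood among the 12 largest rises. Baiap2l2, which encodes a membrane-bending protein, was at 25.7, 16.2, 21.8, 14.8 and 26.3 CPM in APPPS1_NLRP3_6m and 0, 0.060997, 0.368 and 0.273 CPM in NLRP3_6m. It was nearly unread in the 4 libraries without transgenes and clearly read in all 5 with them (6.79 ± 0.77, adjusted p = 2.1e-08). Dkk2, a secreted modulator of Wnt signalling, lay at 5.21 to 14.7 CPM against 0.060997 to 0.238 CPM (5.68 ± 0.90, adjusted p = 1.2e-05). Minar1 lay at 5.399 to 9.35 CPM against 0 to 0.4598 CPM (5.34 ± 0.77, adjusted p = 2.8e-06), and Trpm1, a cation channel best known from the retina, at 2.99 to 9.17 CPM against 0 to 0.328 CPM (5.26 ± 0.82, adjusted p = 9.7e-06). Lgi2 varied among the transgenic libraries, with 45.8, 5.92, 10.7, 28.8 and 12.02 CPM in APPPS1_NLRP3_6m and 0.179, 0.671, 1.104 and 1.53 CPM in NLRP3_6m. Replicate 25 was the highest and replicate 28 the lowest, which was still above all 4 libraries without transgenes (4.42 ± 0.75, adjusted p = 3.6e-05). Cox6a2, the heart and muscle isoform of a cytochrome c oxidase subunit, lay at 8.03 to 25.9 CPM against 0.488 to 1.73 CPM (3.72 ± 0.43, adjusted p = 2.6e-08). Fitted differences of genes with counts near 0 in one group depend on the prior count of the fit, so these sizes are rough.

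Of 22 homeostatic microglial genes tested, 1 was called lower and 0 higher, near the 1.96% of all genes called lower, with a median log2 difference of -0.101. The purinergic receptor P2ry12 was at 4997, 5193, 4482, 4768 and 6016 CPM in APPPS1_NLRP3_6m and 6467, 5913, 5527 and 5632 CPM in NLRP3_6m. Replicate 31 lay inside the range of the libraries without transgenes, and the difference did not pass the test (-0.24 ± 0.16, adjusted p = 0.40). Tmem119, a microglial surface protein of unknown function, lay at 1856 to 2132 CPM against 2296 to 2608 CPM, without overlap but without a call (-0.25 ± 0.16, adjusted p = 0.36). Sall1, a transcription factor of microglial identity, lay at 298 to 369.7 CPM against 342 to 406 CPM (-0.20 ± 0.11, adjusted p = 0.31). The member called lower was Crybb1, a crystallin gene, at 67.4 to 119.8 CPM against 113 to 179.6 CPM (-0.72 ± 0.22, adjusted p = 0.032). Its call was lost in 5 of the 9 leave-one-out fits, with adjusted p up to 0.12 without replicate 32. Under library totals without TMM, 7 members were called lower and 0 higher, and under DESeq2 3 were.

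Type I interferons act through a receptor on the cell surface and the factor complex ISGF3, which binds the interferon-stimulated response element (ISRE), and NF-kB binds the kB element. Cytokine, chemokine and antigen-presentation genes are known targets of these factors. The 250 bases before the annotated start of 3 genes that rose are shown here because each holds an ISRE, and 2 of them a kB element too. They are from RefSeq on GRCm38.p6, read 5′ to 3′ on the strand of the gene, and capitals mark bases that match either element on either strand. Cxcl10 lies at chr5:92348890-92349139 (- strand), Oas1a at chr5:120907526-120907775 (- strand) and B2m at chr2:122147437-122147686 (+ strand).
Cxcl10: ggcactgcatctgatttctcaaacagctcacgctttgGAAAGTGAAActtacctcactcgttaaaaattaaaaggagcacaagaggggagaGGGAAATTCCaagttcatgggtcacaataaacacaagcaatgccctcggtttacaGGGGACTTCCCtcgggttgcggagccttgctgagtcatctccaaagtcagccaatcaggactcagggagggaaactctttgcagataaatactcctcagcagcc
Oas1a: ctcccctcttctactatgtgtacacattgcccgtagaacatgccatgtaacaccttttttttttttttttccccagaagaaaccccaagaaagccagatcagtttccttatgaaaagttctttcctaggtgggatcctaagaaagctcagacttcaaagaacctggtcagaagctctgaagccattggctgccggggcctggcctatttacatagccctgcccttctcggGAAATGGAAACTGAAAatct
B2m: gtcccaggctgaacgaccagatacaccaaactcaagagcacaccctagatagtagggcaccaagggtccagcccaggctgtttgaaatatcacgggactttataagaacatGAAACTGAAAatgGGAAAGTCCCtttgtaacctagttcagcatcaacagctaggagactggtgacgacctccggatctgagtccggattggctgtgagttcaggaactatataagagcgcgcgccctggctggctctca
The ISRE was searched as GAAA, any pair of bases and GAAA again, and the kB element by its consensus, both on either strand. In Cxcl10 the ISRE began at -213 from the start and kB matches began at -159, -104 and -103, the last pair overlapping. In Oas1a ISRE matches began at -20 and -14 and overlapped. In B2m the ISRE began at -139 and the kB match at -126. Over windows from 250 bases before to 50 after the start, an ISRE was found in 15 of 23 interferon-response promoters (65.2%), beside 498 of 12702 promoters of all genes tested (3.92%). A kB match was found in 10 of 16 promoters of NF-kB feedback genes (62.5%) and 9 of 18 of MHC class I genes (50%), beside 1540 of all 12702 (12.1%). Among all genes called higher, the shares were 5.96% for the ISRE and 14.8% for the kB element, and among all genes called lower 3.16% and 14.7%. A match is a run of letters and not a measured binding site. The lists hold known targets of these factors, so their shares do not bear on the transgene difference. In the interferon-response and NF-kB feedback lists, members that were not called held matches too.

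Of 32 interferon-response genes tested, 22 rose and 0 fell, beside 6.19% and 1.96% of all genes, with a median of 1.03. Cxcl10, a chemokine that attracts T cells, was at 106, 78.8, 108, 136 and 116 CPM in APPPS1_NLRP3_6m and 29.9, 22.2, 18.1 and 22.5 CPM in NLRP3_6m. The lowest transgenic value, in replicate 28, was well above the highest without transgenes (2.23 ± 0.21, adjusted p = 3.2e-10). Oas1a, a sensor of double-stranded RNA, was at 37.4, 19.6, 24.7, 32.8 and 43.7 CPM in APPPS1_NLRP3_6m and 14.6, 4.45, 8.83 and 8.13 CPM in NLRP3_6m. Both groups spread widely and did not overlap (1.81 ± 0.32, adjusted p = 5.2e-05). Zbp1, a nucleic-acid sensor of the cell-death machinery, lay at 6.32 to 16.9 CPM against 1.71 to 2.44 CPM (2.36 ± 0.37, adjusted p = 1.3e-05) and Mx1, an antiviral GTPase, at 11.3 to 19.9 CPM against 3.05 to 6.79 CPM (1.66 ± 0.28, adjusted p = 2.8e-05). In the libraries with the second title number 2 alone, 6 of the 32 were called.

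MHC class I molecules carry peptides to the surface with beta-2-microglobulin. Of 20 genes of this presentation pathway, 15 rose and 0 fell, beside 6.19% and 1.96% of all genes, with a median of 0.59. B2m, the shared light chain, was at 5566, 3576, 3319.8, 4304 and 7414 CPM in APPPS1_NLRP3_6m and 2637, 2099, 1939.6 and 1845 CPM in NLRP3_6m. Replicates 25 and 31 were the highest, and the lowest transgenic library, replicate 29, lay above the highest without transgenes (1.17 ± 0.20, adjusted p = 5.7e-05). The heavy chains H2-D1 (1414 to 2344 CPM against 603 to 863 CPM; 1.32 ± 0.25, adjusted p = 0.00016) and H2-K1 (670.3 to 1002 CPM against 381 to 517 CPM; 0.96 ± 0.18, adjusted p = 0.00018) rose too, although reads of these near-identical genes may have been shared in the counting. Of 14 MHC class II genes, 4 rose (2 without replicate 33) and 0 fell. One of these was H2-Ob, a chain of the peptide-editing modulator H2-O (0.85 ± 0.14, adjusted p = 2.5e-05).

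NF-kB target genes that feed back on the pathway gave 13 rises and 0 falls of 20 tested (6.19% and 1.96% of all genes), with a median of 0.625. Cd83, a surface protein of activated antigen-presenting cells, was at 2595, 2805, 3489, 4748 and 3921 CPM in APPPS1_NLRP3_6m and 1445, 1058, 1114 and 1287 CPM in NLRP3_6m. Every transgenic library stood above every library without transgenes (1.51 ± 0.22, adjusted p = 4.0e-06). Tnfaip2, a target of tumour necrosis factor, was at 40.5, 70.2, 40.5, 123 and 101 CPM in APPPS1_NLRP3_6m and 18.8, 23.2, 12.1 and 16.7 CPM in NLRP3_6m. Replicates 30 and 31 were the highest of the 5 (2.09 ± 0.32, adjusted p = 7.8e-06). The NF-kB subunit Relb (20.9 to 56.1 CPM against 16.3 to 18.7 CPM; 0.95 ± 0.18, adjusted p = 0.00024) and the inhibitor Nfkbib (27.3 to 62.98 CPM against 20.7 to 25.2 CPM; 0.87 ± 0.19, adjusted p = 0.0014) were highest in replicate 30. Without replicate 30 the list gave 7 rises, without replicate 27 or 33 it gave 8, under library totals 6, and 4 when the fit held the 9 libraries alone.

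Among 26 cytokines and growth factors tested, 12 rose and 0 fell (6.19% and 1.96% of all genes). Tnf, the tumour necrosis factor, was at 397, 386, 483, 452 and 321 CPM in APPPS1_NLRP3_6m and 159, 125, 113 and 136 CPM in NLRP3_6m. The lowest transgenic library, replicate 31, lay well above the highest without transgenes (1.61 ± 0.22, adjusted p = 1.2e-06). The ligands of the same family Tnfsf9 (54.5 to 88.2 CPM against 12.5 to 20.3 CPM; 2.25 ± 0.33, adjusted p = 4.1e-06) and Tnfsf8 (26.6 to 47.3 CPM against 5.43 to 7.92 CPM; 2.57 ± 0.39, adjusted p = 6.1e-06) rose as well. Il12b, the shared subunit of interleukins 12 and 23, was at 8.24, 13.6, 13.2, 35.5 and 48.2 CPM in APPPS1_NLRP3_6m and 1.67, 0.060997, 0.368 and 0.273 CPM in NLRP3_6m. It was nearly unread in 3 of the 4 libraries without transgenes, and replicates 30 and 31 were the highest of the others (5.33 ± 0.83, adjusted p = 9.7e-06).

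Of 25 chemokines and chemokine receptors, 10 rose and 0 fell (6.19% and 1.96% of all genes), and the median was 1.21. Cxcl16, a membrane-bound chemokine and scavenger receptor, was at 186, 204, 203, 313 and 271 CPM in APPPS1_NLRP3_6m and 97.3, 80.6, 79.6 and 91.3 CPM in NLRP3_6m. The groups did not overlap, and replicates 30 and 31 were the highest (1.43 ± 0.15, adjusted p = 2.8e-09). The macrophage inflammatory proteins Ccl3 (1338 to 2317 CPM against 570.2 to 839.6 CPM; 1.27 ± 0.21, adjusted p = 2.0e-05) and Ccl4 (1704 to 2730.2 CPM against 661 to 872 CPM; 1.42 ± 0.22, adjusted p = 7.0e-06) were highest in replicates 25 and 29. Ccl6 lay at 413 to 1009.9 CPM against 135 to 230.2 CPM (1.84 ± 0.29, adjusted p = 9.7e-06).

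The transcripts of the interleukin-1 family moved unevenly in cells without Nlrp3, with 7 of 25 members of the inflammasome and interleukin-1 list higher (4 without replicate 27 or 30), 0 lower and a median of 0.13. Il1b, the precursor that caspase-1 cuts, was at 1073, 1337, 1866, 1270.2 and 1233 CPM in APPPS1_NLRP3_6m and 313, 292, 152 and 248 CPM in NLRP3_6m. Replicate 29 was the highest, and the groups did not overlap (2.43 ± 0.32, adjusted p = 4.7e-07). Il1rn, the receptor antagonist, was at 16.3, 9.299, 20.1, 18.7 and 22.97 CPM in APPPS1_NLRP3_6m and 4.64, 3.84, 2.21 and 3.002 CPM in NLRP3_6m. Its lowest transgenic value, in replicate 28, lay above all 4 values without transgenes (2.36 ± 0.36, adjusted p = 6.1e-06). Il1a, which needs no caspase-1, lay at 1335 to 2293 CPM against 726 to 941 CPM (1.12 ± 0.21, adjusted p = 0.00020). Il18, the other substrate of caspase-1, lay at 34.4 to 52.03 CPM against 43.8 to 50.8 CPM and was not called (-0.22 ± 0.15, adjusted p = 0.41). Casp1 itself was at 66.98, 70.4, 69.3, 66.2 and 88.8 CPM in APPPS1_NLRP3_6m and 53.4, 52.6, 54.95 and 59.7 CPM in NLRP3_6m. Replicate 31 was the highest of the 9, and the call (0.36 ± 0.11, adjusted p = 0.030) was lost in 6 of the 9 leave-one-out fits, with adjusted p up to 0.14 without replicate 26. Pycard, the adaptor ASC, lay at 156 to 260.1 CPM against 137 to 147 CPM and was not called (0.44 ± 0.15, adjusted p = 0.056).

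Among 24 genes of Toll-like receptor sensing, 8 rose and 1 fell. Cd14, a co-receptor for lipopolysaccharide, was at 621, 781, 890.3, 885 and 1232 CPM in APPPS1_NLRP3_6m and 347, 353, 358 and 387 CPM in NLRP3_6m. Replicate 31 was the highest, and replicate 25 the lowest of the 5 and above all 4 others (1.29 ± 0.20, adjusted p = 9.7e-06). Tlr2 (485 to 779 CPM against 185 to 239.9 CPM; 1.55 ± 0.20, adjusted p = 2.4e-07) and its partner Tlr1 (76.1 to 100.4 CPM against 34.2 to 56.1 CPM; 0.87 ± 0.14, adjusted p = 9.7e-06), which sense bacterial lipopeptides together, both rose.

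Inhibitory receptors and their ligands gave 10 rises and 1 fall of 23 tested. Cd274, which encodes PD-L1, was at 69.1, 60.8, 83.4, 77.8 and 82.8 CPM in APPPS1_NLRP3_6m and 24.7, 13.7, 17.5 and 20.8 CPM in NLRP3_6m. Its receptor gene Pdcd1, which encodes PD-1, was at 41.5, 18.7, 33.3, 32.6 and 32.9 CPM in APPPS1_NLRP3_6m and 8.28, 3.48, 3.82 and 6.22 CPM in NLRP3_6m. Neither gene overlapped between the groups (1.96 ± 0.24, adjusted p = 1.0e-07 and 2.55 ± 0.36, adjusted p = 1.9e-06). Of 7 T and NK cell markers tested, 1 rose and 0 fell, and their summed level overlapped (6.94 to 12.2 CPM against 7.13 to 11.7 CPM). Its part in the Pdcd1 difference was not tested. Cd22, a sialic-acid receptor (1.51 ± 0.27, adjusted p = 7.1e-05), and Lilrb4a, a receptor with inhibitory tails (1.60 ± 0.29, adjusted p = 0.00011), rose. Siglece, another sialic-acid receptor, was the member that fell, at 36.9 to 46.3 CPM against 55.6 to 72.2 CPM (-0.68 ± 0.19, adjusted p = 0.015).

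Of 18 genes of the Bcl2 family and its regulators, 7 rose and 0 fell. Bcl2a1d, a survival factor, was at 46.4, 45.6, 56.7, 68.9 and 79.7 CPM in APPPS1_NLRP3_6m and 8.75, 8.91, 8.74 and 9.44 CPM in NLRP3_6m, and all 5 transgenic values lay far above the others (2.72 ± 0.37, adjusted p = 1.0e-06). Its close copy Bcl2a1b lay at 141 to 246 CPM against 49.4 to 59.3 CPM (1.65 ± 0.23, adjusted p = 1.1e-06). The counting may have split reads between these copies, so their separate sizes are uncertain. Pmaip1, which encodes the pro-death protein Noxa, rose along with them (1.17 ± 0.20, adjusted p = 5.5e-05).

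Lysosomal genes gave 26 rises and 1 fall of 40 tested (6.19% and 1.96% of all genes), with a median of 0.603. Ctse, which encodes cathepsin E, was at 19.5, 9.36, 12.6, 8.36 and 19.5 CPM in APPPS1_NLRP3_6m and 0.953, 0.671, 1.43 and 1.53 CPM in NLRP3_6m. The lowest transgenic library, replicate 30, lay far above all 4 others (3.58 ± 0.48, adjusted p = 7.8e-07). Gusb, the enzyme beta-glucuronidase, lay at 491 to 695 CPM against 252 to 291 CPM (1.13 ± 0.14, adjusted p = 2.3e-07). The proton pump that acidifies the lysosome gave 12 rises and 0 falls of 16 subunits. Its subunit Atp6v1c1 was at 345, 302, 304, 338 and 429 CPM in APPPS1_NLRP3_6m and 221, 184, 192 and 213 CPM in NLRP3_6m. The groups did not overlap (0.75 ± 0.13, adjusted p = 5.8e-05). Atp6v1b2 lay at 253 to 322 CPM against 168 to 220.04 CPM (0.53 ± 0.10, adjusted p = 0.00035), and Atp6v1a at 155 to 263 CPM against 109.99 to 156 CPM with overlap (0.58 ± 0.13, adjusted p = 0.0012). Without replicate 26, 31 or 33 the pump gave 7 rises, and with RLE size factors it gave 6. The CLEAR element, searched as CACGTG with T before and A after it, is a binding sequence of the lysosomal regulator TFEB. On either strand it was found in 3 of 11 pump promoters (27.3%) and 4 of 32 lysosomal ones (12.5%), beside 248 of 12702 (1.95%). These shares describe the lists and do not bear on the transgene difference.

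In lipid metabolism, 7 of 24 fatty-acid and lipid-droplet genes rose and 1 fell. Acaca, the enzyme of the committed step of fatty-acid synthesis, was at 54.7, 33.7, 42.6, 40.2 and 42.3 CPM in APPPS1_NLRP3_6m and 8.099, 11.9, 10.4 and 10.4 CPM in NLRP3_6m. The lowest transgenic library lay well above the highest without transgenes (2.10 ± 0.29, adjusted p = 1.3e-06). Plin2, a coat protein of lipid droplets, lay at 98.1 to 154 CPM against 50.4 to 61.2 CPM (1.17 ± 0.20, adjusted p = 3.2e-05), and Soat1, which esterifies cholesterol for storage, at 154 to 193 CPM against 99.9 to 112 CPM (0.72 ± 0.15, adjusted p = 0.00056). Of 24 cholesterol-synthesis genes, 8 rose and 0 fell, among them Cyp51 (0.81 ± 0.16, adjusted p = 0.00039) and Insig1, a brake on that pathway (0.79 ± 0.15, adjusted p = 0.00018).

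Glycolysis gave 12 rises and 0 falls of 24 tested (6.19% and 1.96% of all genes). Pkm, the pyruvate kinase, was at 573, 490.5, 682, 633 and 747 CPM in APPPS1_NLRP3_6m and 249.5, 292, 298 and 298 CPM in NLRP3_6m. All 5 transgenic values lay above all 4 others (1.15 ± 0.16, adjusted p = 1.6e-06). Tpi1 (1.23 ± 0.18, adjusted p = 4.0e-06), the lactate exporter Slc16a3 (1.41 ± 0.20, adjusted p = 1.7e-06) and the glucose-transporter family member Slc2a6 (2.54 ± 0.38, adjusted p = 6.1e-06) rose with it. Hif1a, the oxygen-sensitive transcription factor, lay at 489 to 663 CPM against 179 to 245 CPM (1.47 ± 0.20, adjusted p = 9.8e-07), and Egln3, one of the hydroxylases that mark it for decay, at 19.6 to 47.7 CPM against 1.01 to 1.91 CPM (4.63 ± 0.51, adjusted p = 9.6e-09). Of 19 genes of serine synthesis and one-carbon metabolism, 2 rose (1 without replicate 30 or 33) and 0 fell, near the share of all genes (6.19% higher), with a median of 0.175. Psat1, an aminotransferase of serine synthesis, had the larger estimate (109 to 227 CPM against 18.4 to 42.996 CPM; 2.50 ± 0.29, adjusted p = 3.3e-08). Of 24 glutamine and glutamate genes, 2 rose and 1 fell, near the shares of all genes (6.19% and 1.96%), with a median of 0.0253. With RLE size factors, DESeq2 or library totals, 3 of them fell. Among the rises was Got1, an aspartate aminotransferase (1.20 ± 0.19, adjusted p = 1.0e-05).

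All 25 ribosomal protein genes tested rose, and none overlapped between the groups. Their median was 0.871, with a range from 0.619 to 1.32. Rpl32 was at 156, 132, 118, 146 and 266 CPM in APPPS1_NLRP3_6m and 65.8, 63.6, 69.9 and 62.6 CPM in NLRP3_6m. Replicate 31 was the highest by far, yet the other 4 transgenic libraries also lay above all 4 without transgenes (1.32 ± 0.21, adjusted p = 1.1e-05). Rps19 (1.23 ± 0.19, adjusted p = 7.0e-06) and Rplp0 (0.93 ± 0.15, adjusted p = 9.7e-06) had the same pattern of a high replicate 31. The list gave 21 to 25 rises in the 9 leave-one-out fits, the fewest without replicate 31. Of 28 nuclear genes of oxidative phosphorylation, 4 rose (2 without replicate 26 or 31, 9 without replicate 29) and 0 fell, one of them Cox4i1 (0.65 ± 0.17, adjusted p = 0.0085), and none of 13 mitochondrial genes was called. All 28 and all 13 had a difference above 0, with medians of 0.238 and 0.226 beside -0.0355 over all genes. With library totals 18 and 9 of them did.

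Iron genes moved in both directions, with 3 of 16 higher and 2 lower (6.19% and 1.96% of all genes). Their median was -0.0411, and 6 of the 16 had a difference above 0. The counts depended on the scaling, with 2 higher and 4 lower under RLE size factors and 3 and 4 under DESeq2 or library totals. Within the second title number 1 alone they were 2 and 0. Fth1, the ferritin heavy chain that stores iron, was at 2740, 2824, 2708, 2962 and 3692 CPM in APPPS1_NLRP3_6m and 1609, 1511, 1446 and 1488 CPM in NLRP3_6m. Slc40a1, which encodes the iron exporter ferroportin, was at 306, 339.8, 282, 340.2 and 326 CPM in APPPS1_NLRP3_6m and 488, 439, 423 and 579 CPM in NLRP3_6m. The groups did not overlap for either gene, in opposite directions (0.97 ± 0.15, adjusted p = 1.3e-05 and -0.60 ± 0.12, adjusted p = 0.00053). Slc11a1, an iron pump of phagosomes, rose (0.59 ± 0.12, adjusted p = 0.00076) and Cp, the ferroxidase ceruloplasmin that works with ferroportin, fell (-0.68 ± 0.18, adjusted p = 0.0097).

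Of 26 proliferation genes, 15 rose and 0 fell (6.19% and 1.96% of all genes). Cdk1, the kinase of mitotic entry, was at 23.3, 11.3, 14.05, 13.1 and 13.8 CPM in APPPS1_NLRP3_6m and 7.86, 4.21, 5.06 and 4.04 CPM in NLRP3_6m. Replicate 25 was the highest, and the remaining transgenic values lay above all 4 others (1.52 ± 0.25, adjusted p = 1.9e-05). The helicase subunits Mcm5 (0.95 ± 0.18, adjusted p = 0.00022) and Mcm2 (0.97 ± 0.19, adjusted p = 0.00023) rose. Mki67, the proliferation antigen, was at 19.99, 14.01, 18.9, 16.1 and 7.58 CPM in APPPS1_NLRP3_6m and 9.05, 7.93, 8.28 and 5.73 CPM in NLRP3_6m. Replicate 31 lay inside the range without transgenes, and the call (0.99 ± 0.32, adjusted p = 0.042) was lost in 7 of the 9 leave-one-out fits, with adjusted p up to 0.14 without replicate 33. The list gave 9 rises without replicate 32.

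Matrix remodelling genes gave 9 rises and 0 falls of 24, with Plaur, the urokinase receptor (69.3 to 122 CPM against 20.1 to 25.8 CPM; 1.96 ± 0.25, adjusted p = 2.8e-07), Mmp12, a macrophage elastase (12.3 to 26.99 CPM against 1.95 to 4.11 CPM; 2.55 ± 0.35, adjusted p = 9.2e-07), and Lox, the collagen crosslinker (25.4 to 51.1 CPM against 0.736 to 2.07 CPM; 4.61 ± 0.61, adjusted p = 5.2e-07). Integrin subunits moved in both directions, with 3 of 17 higher and 2 lower (6.19% and 1.96% of all genes). Their median was -0.0894, and 7 of the 17 had a difference above 0. Among those that rose, Itga5, the fibronectin receptor subunit, was at 42.4, 51.5, 45.2, 125 and 102 CPM in APPPS1_NLRP3_6m and 28.4, 21.6, 22.5 and 22.7 CPM in NLRP3_6m, with replicates 30 and 31 the highest (1.62 ± 0.25, adjusted p = 8.6e-06). Of 30 transcription factors, 3 rose and 1 fell, near the shares of all genes (6.19% and 1.96%), with a median of 0.106. Rxrg, a retinoid X receptor (2.94 ± 0.56, adjusted p = 0.00020), Bhlhe40 (1.11 ± 0.29, adjusted p = 0.0077) and Irf8 (0.45 ± 0.12, adjusted p = 0.0080) rose, and Maf, a macrophage factor, fell (-0.49 ± 0.14, adjusted p = 0.016). The calls of Irf8 (without replicate 26, adjusted p = 0.071) and Maf (without replicate 27, adjusted p = 0.058) were each lost in 1 leave-one-out fit.

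Of 21 prostaglandin and leukotriene genes, 2 rose (4 without replicate 29) and 1 fell, near the 6.19% and 1.96% of all genes, and the list's median was -0.0954. Ptgs2, which encodes cyclooxygenase-2, was at 135, 120.4, 185, 183 and 128 CPM in APPPS1_NLRP3_6m and 47.6, 26.9, 20.003 and 28.003 CPM in NLRP3_6m. The lowest of the 5 lay above the highest of the 4 (2.30 ± 0.32, adjusted p = 1.3e-06). The receptor Ptger4 lay at 25.7 to 30.9 CPM against 8.74 to 13.2 CPM (1.42 ± 0.24, adjusted p = 3.3e-05). Among 23 ion channels and purinergic or metabolite receptors, 7 rose and 0 fell, including the potassium channel Kcnj2 (1.26 ± 0.25, adjusted p = 0.00045) and Gpr84, a receptor for medium-chain fatty acids (1.13 ± 0.24, adjusted p = 0.00080). Cybb, the catalytic core of the phagocyte NADPH oxidase, lay at 83.4 to 161 CPM against 40.4 to 64.9 CPM (1.02 ± 0.25, adjusted p = 0.0048).

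Genes of vessels were among those that fell. Of 14 markers of endothelium and pericytes, 6 fell and 0 rose, with a median of -1.07 and a summed level of 317 to 816 CPM against 789 to 1487 CPM. In CD11b+ preparations fewer such cells and less RNA per cell cannot be told apart. Rgs5, a pericyte gene, was at 26.7, 20.4, 38.6, 26.1 and 21.6 CPM in APPPS1_NLRP3_6m and 59.6, 82.9, 68.8 and 89.4 CPM in NLRP3_6m. The highest transgenic library, replicate 29, lay below the lowest of the others (-1.50 ± 0.32, adjusted p = 0.00100). Pecam1, an endothelial adhesion molecule that macrophages also carry, lay at 22.1 to 43.8 CPM against 44.3 to 69.9 CPM (-0.89 ± 0.23, adjusted p = 0.0085). Kcnj8, a pericyte potassium channel (-1.82 ± 0.48, adjusted p = 0.0088), and Ccn2, a matrix-associated growth factor (-1.57 ± 0.40, adjusted p = 0.0061), were among the 12 largest falls. Without replicate 27, the only male library without transgenes, Kcnj8 lost its call (adjusted p = 0.057). Prss23, a serine protease, fell by 1.61 ± 0.38 on the log2 scale (adjusted p = 0.0030), and an antisense gene overlaps it, which counts of unstated strand may not separate. The vessel list gave 11 falls without replicate 29, 10 under library totals and 3 in female libraries alone, a setting added after seeing the data.

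Markers of other cells overlapped between the groups in their sums for astrocytes (2032 to 3320.3 CPM against 1128 to 3234 CPM), neurons (44.05 to 386 CPM against 106 to 353 CPM) and neutrophils (18.1 to 669 CPM against 38.9 to 368 CPM). The lowest astrocyte sum was that of replicate 32, and WT_6m libraries, with intact Nlrp3, lay at 736 to 1195 CPM. The astrocyte sum therefore may not follow astrocyte content alone, which was not tested. Of 12 astrocyte markers, 2 fell and 5 lay lower without overlap, with a median of -0.786. The count was 0 or 1 without replicate 25, 26, 27, 30, 31, 32 or 33, 4 with the 9 libraries alone or with library totals, and 5 in female libraries. One of those that fell was Gja1, a gap-junction protein (-1.22 ± 0.35, adjusted p = 0.018), whose call was lost without replicate 30 (adjusted p = 0.058) or 31 (adjusted p = 0.081). None of the 12 neuronal, 10 oligodendrocyte, 10 neutrophil, 5 erythroid and 8 choroid plexus markers tested was called. Yet all 10 neutrophil markers had a difference above 0, with a median of 1.04. Differences above 0 were found for 5 of 12 neuronal, 1 of 10 oligodendrocyte and 0 of 8 choroid plexus markers. The medians of these 3 lists were -0.238, -0.392 and -0.556. All 5 erythroid markers had a difference below 0, with a median of -1.47, and 3 were called lower with the 9 libraries alone, 2 without replicate 31 and 1 with RLE size factors, DESeq2 or library totals. An oligodendrocyte marker was called lower with DESeq2 and with library totals. The erythroid sum did not overlap (17.7 to 103.9 CPM against 115.7 to 171 CPM). Of 23 immediate-early genes, which respond to tissue dissociation, 3 rose and 0 fell, among them Dusp2, a phosphatase gene also induced by NF-kB signals (1.24 ± 0.21, adjusted p = 2.5e-05). Slc7a5, an amino-acid carrier of vessels and activated cells, fell (-0.64 ± 0.16, adjusted p = 0.0068). The part of these cell and handling markers in the results above was not tested.

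**Figure D3:**
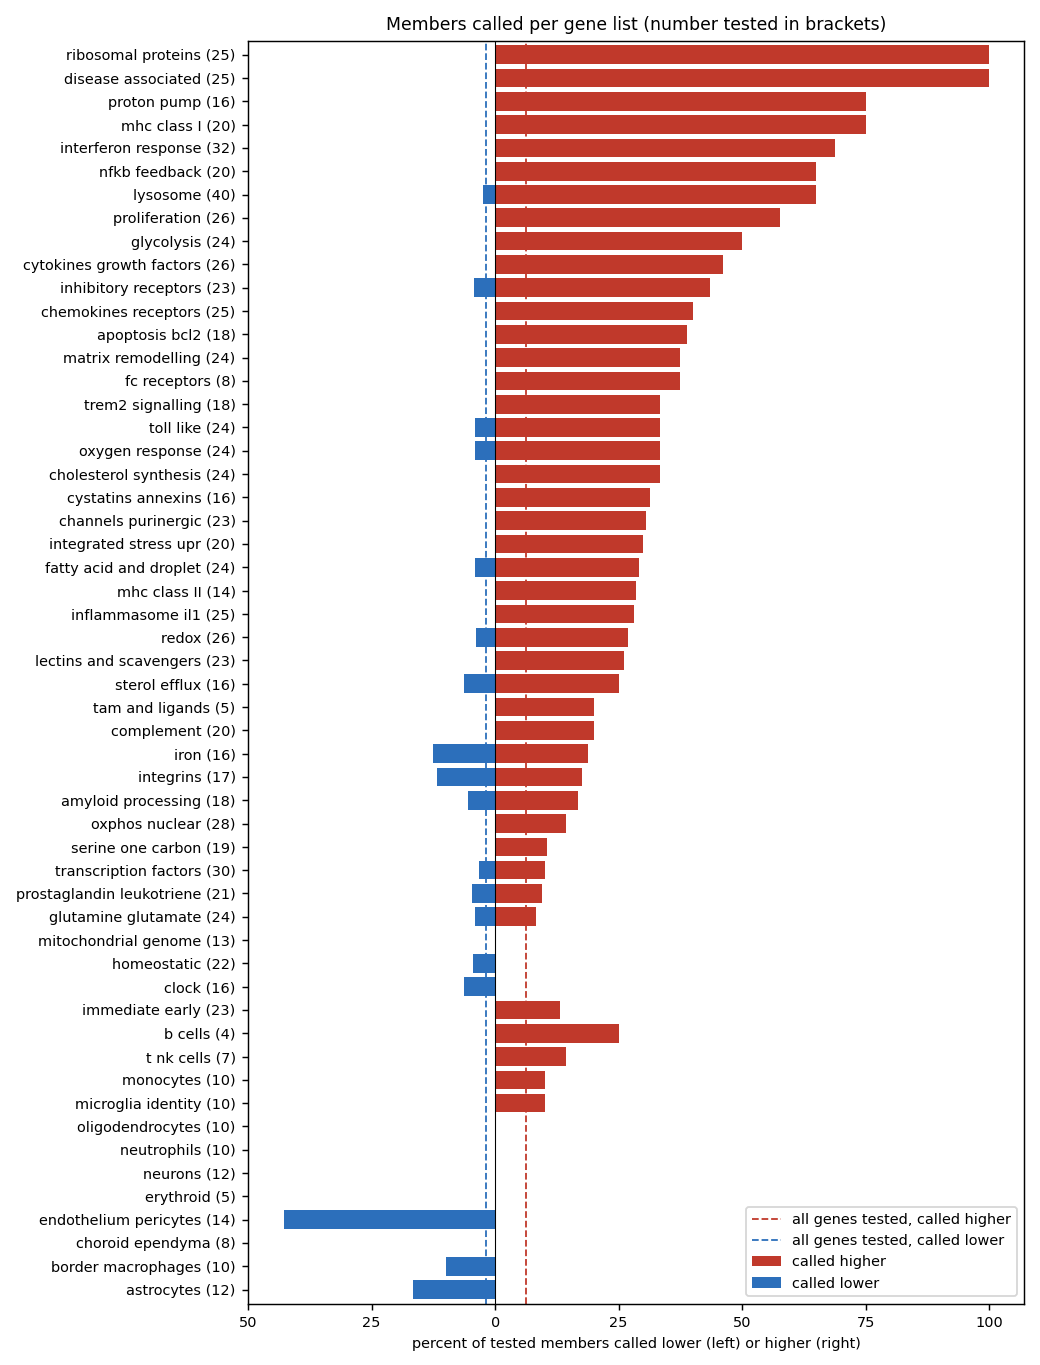
Bars give, for each of 54 gene lists (tested members in brackets), the percent of members called higher (red, to the right) and lower (blue, to the left), with dashed lines at 6.19% and 1.96% for all genes tested. Ribosomal and disease-associated genes reach 100% higher, and endothelium and pericytes have the longest blue bar, with 6 of 14 lower.

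Whether the transgene difference depended on Nlrp3 was asked by setting it against the same difference in mice with intact Nlrp3 (APPPS1_6m minus WT_6m, with 4 and 5 libraries, all female where sex could be read). The interaction was called in 4 of 19865 genes (0.0201%), 3 with a more positive difference without Nlrp3 and 1 with a less positive one, while 1488 had an unadjusted p under 0.05. DESeq2 called 6, and adding the first title number to the fit gave 0 (1128 at an unadjusted p under 0.05). Leaving out 1 library gave 0 calls without APPPS1_6m replicate 22, 1 without WT_6m replicate 18 or 20, APPPS1_6m replicate 23, APPPS1_NLRP3_6m replicate 30 or NLRP3_6m replicate 32, 2 without WT_6m replicate 19 or NLRP3_6m replicate 26, 27 or 33, and 9 without APPPS1_NLRP3_6m replicate 25. In the disease-associated list 22 of 25 were called higher with intact Nlrp3 (2.08% of all genes), 25 of 25 without, and the interaction was called in 0, with a median of 0.402 beside 0.0221 over all genes. No member of that list was therefore shown to differ between the backgrounds. With intact Nlrp3, 0 of 32 interferon-response and 0 of 20 MHC class I genes were called higher. NF-kB feedback genes gave 0 of 20 and ribosomal protein genes 2 of 25. Without Nlrp3 these lists gave 22, 15, 13 and 25. The interaction was called in 1, 0, 0 and 0 of their members, with medians of 0.643, 0.367, 0.88 and 0.438. Lysosomal genes gave 18 of 40 with and 26 of 40 without, and 0 in the interaction. A call in 1 background alone does not show a difference.

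Cxcl10 had the firmest interaction. With intact Nlrp3 its levels, from lowest to highest, were 27.5, 28.7, 29.4, 34.9 and 48.5 CPM in WT_6m and 35.4, 51.8 and 52.3 CPM in the 3 APPPS1_6m libraries of usable depth. The groups with intact Nlrp3 overlapped (0.43 ± 0.21, adjusted p = 0.27). The interaction was 1.80 ± 0.30, adjusted p = 0.0038, and it was lost in 1 of 17 leave-one-out fits, without APPPS1_6m replicate 22 (adjusted p = 0.093), and when the first title number was added to the fit (adjusted p = 0.051). The range in NLRP3_6m, 18.1 to 29.9 CPM, overlapped the lower end of that in WT_6m.

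Snhg15, a long non-coding RNA gene, lay at 14.8 to 25.001 CPM against 9.23 to 12.2 CPM without Nlrp3, and at 10.3 to 12.7 CPM against 14.3 to 18.5 CPM with it. It rose without Nlrp3 (0.70 ± 0.15, adjusted p = 0.0012) and was not called with it (-0.49 ± 0.17, adjusted p = 0.086), and the interaction was 1.19 ± 0.22, adjusted p = 0.022. Rasgef1b, an exchange factor induced by Toll-like receptor signals, had an interaction of 1.30 ± 0.25, adjusted p = 0.022. Mamdc2 was the opposite case. Its levels were 0.728, 1.01, 1.14, 1.41 and 2.47 CPM in WT_6m and 19.8, 20.4 and 28.7 CPM in APPPS1_6m. Without Nlrp3 the transgenic libraries (0.8998 to 5.81 CPM) overlapped those without transgenes (3.097 to 6.65 CPM), and the interaction was -4.75 ± 0.95, adjusted p = 0.035. The calls of Snhg15, Rasgef1b and Mamdc2 were lost in 7, 10 and 14 of 17 leave-one-out fits. All 3 were also lost when the first title number was added, Snhg15 and Rasgef1b with library totals, and Mamdc2 with sex as a further term (adjusted p = 0.057). Libraries with intact Nlrp3 were female where sex could be read, and those without Nlrp3 were of both sexes. With intact Nlrp3, 7 of 23 immediate-early genes were called lower with the transgenes (196 of 19865 over all genes) and 0 higher. Their median was -0.756, against 0.0558 without Nlrp3, and the interaction was called in 0 of them. Their sum was 18047 to 29150 CPM in WT_6m and 12856 to 14132 CPM in APPPS1_6m libraries of usable depth. The part of this difference in the interactions with Nlrp3 was not tested. At 12 months APPPS1_NLRP3 libraries had 1.31 to 5.81 CPM of Mamdc2 and NLRP3 libraries 0 to 1.31 CPM.

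**Figure D4:**
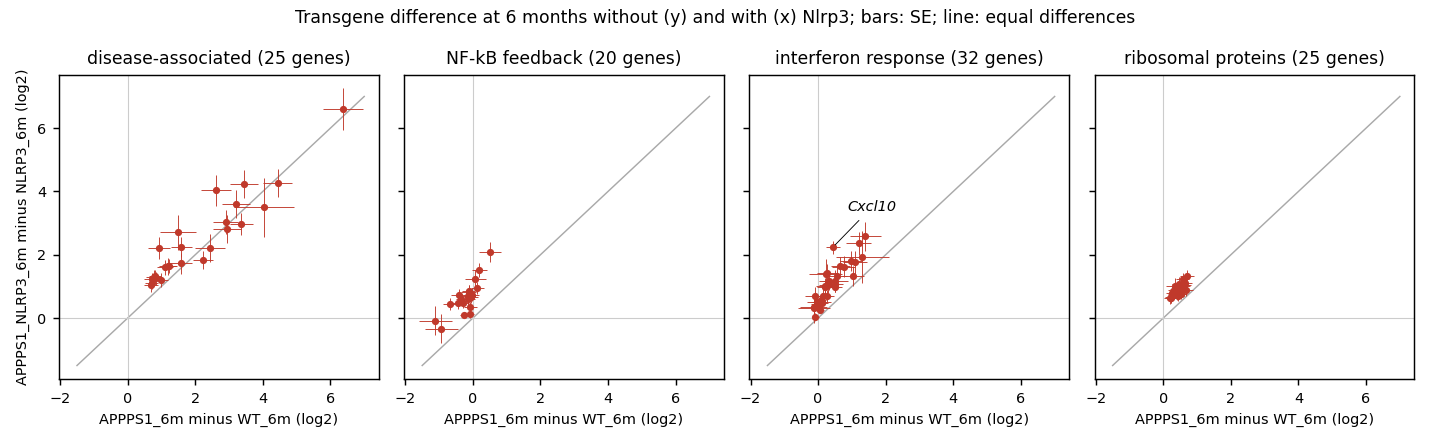
Each point is a gene of the list named above its panel, with its log2 difference with intact Nlrp3 on the x axis and without Nlrp3 on the y axis, bars for the standard error and a line where both are equal. Most disease-associated genes lie above the line, with list medians of 2.21 without and 1.57 with Nlrp3, and Cxcl10, marked among the interferon-response genes, stands at 2.23 without and 0.43 with Nlrp3.

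The transgene difference without Nlrp3 was also set against that at 4 months (APPPS1_NLRP3_4m and NLRP3_4m, 4 libraries each, all female). All 3 interactions here share the 6-month libraries without Nlrp3. The interaction was called in 309 genes (1.56%), 295 with a more positive difference at 6 months and 14 with a less positive one. At 4 months 2 of 25 disease-associated genes were called higher (0.0101% of all genes), and the interaction with age was called in 18 of 25, with a median of 1.82. Of 25 ribosomal protein genes, 17 were called in this interaction, as were 7 of 25 chemokine genes and 3 of 20 NF-kB feedback genes. Age and sex are only partly separated here, since the 4-month libraries were all female and those of 6 months were mixed. At 6 months 2 libraries of APPPS1_NLRP3_6m and 3 of NLRP3_6m were female. The count of 309 was 456 with sex as a further term, 44 with RLE size factors, 113 with library totals and 3 when the first title number was added. It fell to between 61 and 189 without any 1 of 11 libraries (APPPS1_NLRP3_6m replicates 30 and 31, NLRP3_6m replicates 26, 27, 32 and 33, APPPS1_NLRP3_4m replicates 9, 11, 13 and 14, and NLRP3_4m replicate 15), with 61 without replicate 31.

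Cxcl10 lay at 29.2, 35.4, 37.1 and 38.2 CPM in NLRP3_4m and 29.7, 34.9, 44.4 and 55.1 CPM in APPPS1_NLRP3_4m. These groups overlapped, and the interaction was 2.01 ± 0.29, adjusted p = 0.00015. Ccl4 was at 1237, 1258, 1302 and 1452 CPM in NLRP3_4m and 945, 948, 999.8 and 1185 CPM in APPPS1_NLRP3_4m. Here the transgenic libraries lay below the others at 4 months and above them at 6 months, with an interaction of 1.78 ± 0.31, adjusted p = 0.0025. All NLRP3_6m libraries (661 to 872 CPM) lay below those of NLRP3_4m, so the groups without transgenes enter the interaction too. Ccl3 (1.70 ± 0.30, adjusted p = 0.0025), Cxcl16 (1.22 ± 0.21, adjusted p = 0.0025), Bcl2a1b (1.74 ± 0.32, adjusted p = 0.0052) and Bag1, which encodes a co-chaperone (0.88 ± 0.16, adjusted p = 0.0030), followed, and all of these calls held in 17 of 17 leave-one-out fits. Ccl3, Cxcl16, Bcl2a1b and Bag1 also lay lower in every NLRP3_6m library than in any NLRP3_4m library. Ccl3 was at 570 to 840 CPM against 1062 to 1132 CPM, and Bag1 at 67.0 to 78.2 CPM against 82.0 to 90.0 CPM. When the first title number was added to the fit, Cxcl10 and Bag1 kept their calls and the other 4 lost them.

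Against 12 months (APPPS1_NLRP3_12m and NLRP3_12m, 4 libraries each, all male), the interaction was called in 11 genes (0.0554%), all with a less positive difference at 12 months, and 1383 had an unadjusted p under 0.05. Tnf was at 188, 391, 432 and 470.3 CPM in NLRP3_12m and 289.6, 311, 360.02 and 362 CPM in APPPS1_NLRP3_12m. The groups overlapped at 12 months, the transgenic range overlapped that of 6 months, and the levels without transgenes were all above the 113 to 159 CPM of NLRP3_6m (-1.78 ± 0.32, adjusted p = 0.015). Cd83 showed the same order, with 1632 to 3628 CPM in NLRP3_12m against 1058 to 1445 CPM in NLRP3_6m (-1.56 ± 0.32, adjusted p = 0.028). Il1b lay at 415 to 1086 CPM in NLRP3_12m and 809 to 1262 CPM in APPPS1_NLRP3_12m (-2.02 ± 0.44, adjusted p = 0.049). Il1a (-1.47 ± 0.30, adjusted p = 0.028), Nfkbib (-1.36 ± 0.28, adjusted p = 0.028), Dusp2 (-1.40 ± 0.29, adjusted p = 0.034), Birc3, an inhibitor of apoptosis (-1.07 ± 0.21, adjusted p = 0.028), Marcksl1 (-1.67 ± 0.32, adjusted p = 0.028) and Lfng, a glycosyltransferase of Notch signalling (-1.11 ± 0.22, adjusted p = 0.028), were also called. Il1b, Il1a and Dusp2 were picked after their values were seen, from the 11 called. The call of Tnf was lost in 7 of 17 leave-one-out fits and those of the other 8 in 9 to 15.

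Age and sex are only partly separated in that comparison, since the 12-month libraries were all male and those of 6 months were mixed. At 6 months 3 libraries of APPPS1_NLRP3_6m and 1 of NLRP3_6m were male. Sex as a further term left 8 genes called, with Il1b and Lfng no longer among them, and the fit of the compared groups alone left 0 (900 at an unadjusted p under 0.05, and DESeq2 on all libraries called 22). Leaving out 1 library gave 0 calls without APPPS1_NLRP3_6m replicate 30, NLRP3_6m replicate 32 or 33, NLRP3_12m replicate 42 or 48, or APPPS1_NLRP3_12m replicate 43 or 46. It gave 2 without replicate 27 or 31, 3 without NLRP3_12m replicate 45 (1394435 counts), 5 without replicate 26, 6 without replicate 28, 22 without replicate 25 and 27 without NLRP3_12m replicate 47. In the disease-associated list 25 of 25 were called higher at 12 months (5.56% of all genes), and 0 of 25 of these and 0 of 25 ribosomal protein genes were called in the interaction with 12 months. Disease-associated genes had a median of 2.10 at 12 months and 2.21 at 6 months, and ribosomal protein genes 0.531 and 0.871.

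**Figure D5:**
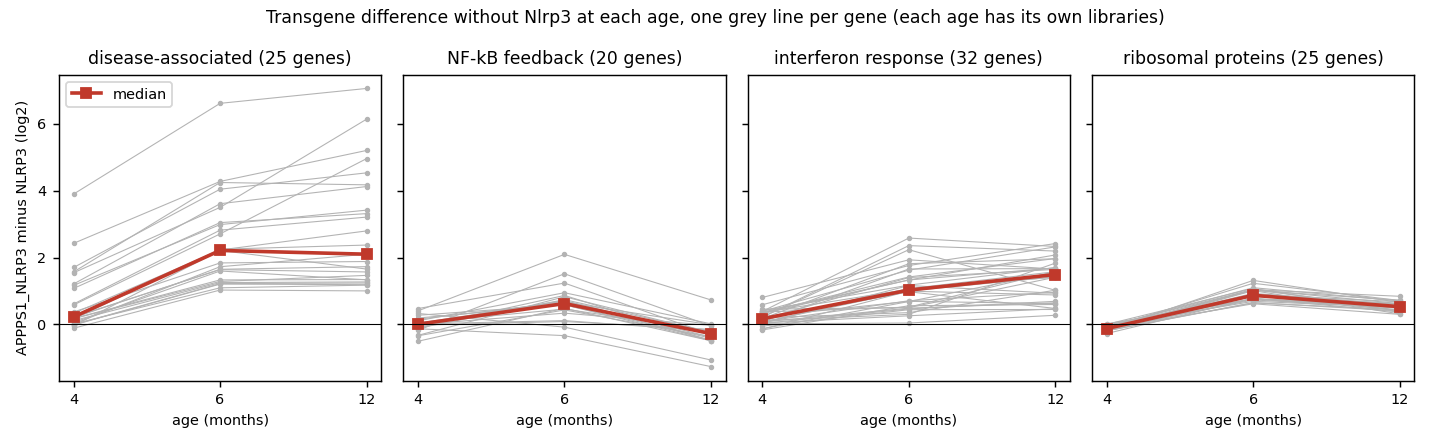
Grey lines give the log2 transgene difference without Nlrp3 of each gene of a list at 4, 6 and 12 months (x, evenly spaced) and the red line their median. The median of the disease-associated list stands at 0.226, 2.21 and 2.10, and that of the NF-kB feedback list at 0.00881, 0.625 and -0.272.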

How the data were processed

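The deposited values are gene counts, 1 column per library for 62 libraries. Per the labels' protocols, the authors made the libraries from 10 ng of RNA with a SMART-Seq v4 kit in 2 batches. The submitters' processing notes name Trimmomatic, TopHat, HTSeq and mm10 without versions, and the strand setting is not given in the sources used here. No molecular identifiers are named, so counts carry PCR copies and depth bears on counting error only.

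Identifiers were matched to GENCODE vM21 (53706 of 53801). All 62 libraries were fitted in edgeR 4.0.16 (quasi-likelihood F test, R 4.3.3) with a term for each of 16 groups and for the second title number, TMM size factors and filterByExpr (minimum count 10, minimum total 15). p-values were two-sided and Benjamini-Hochberg adjusted over 19865 genes, and genes were called under 0.05. Standard errors are the log2 difference over the square root of F. Levels are CPM of the TMM-scaled totals. The fit was also run on simulated counts with known changes, drawn with its own estimates of spread and no effect of sex or title number. That run cannot show whether the calls hold where the groups differ in these. Replicate pairs within the groups differed beyond counting error (chi-square per degree of freedom 12.0 to 70.3 over 16 pairs).

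Alternatives were DESeq2 1.42.0, other size factors, filters, samples and terms, and leaving out each library. The members and lists were chosen with earlier results of these data known, so they give no independent support. Named genes were a fixed set, the 12 largest called rises and falls at a mean of at least 5 CPM, up to 4 rises and 3 falls of smallest adjusted p per list, and up to 6 per interaction. Predicted genes were counted, not named (168 of the 1618).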

Additional observations from a re-analysis of the deposited data

Results flagged for a closer look

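Of 298 sets of 4 or 5 libraries examined for the genes named here, 20 had 1 library far from the others by Dixon's test at 95%, and chance flags about 1 in 20. In APPPS1_NLRP3_6m replicate 31 stood apart for Casp1 (88.8 CPM), Pycard (260.1 CPM), Bcl2a1b (246 CPM), Rpl32 (266 CPM), Rplp0 (413 CPM), Fth1 (3692 CPM), Mmp12 (26.99 CPM) and Fcgr2b (762 CPM), in each case above the other 4. Replicate 30 stood high for Pmaip1 (139 CPM), replicate 25 high for Cdk1 (23.3 CPM) and replicate 28 low for Mcm2 (14.3 CPM). In NLRP3_6m replicate 26 stood high for Tnfsf8 (7.92 CPM), Egln3 (1.91 CPM) and Itga5 (28.4 CPM) and low for Pkm (249.5 CPM) and Cstb (37.8 CPM). Replicate 33 stood high for Cyp51 (31.01 CPM), and replicate 27 high for Hcst (6.53 CPM) and low for Plaur (20.1 CPM) and Hlf (24.6 CPM).

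The transgene difference itself differed by a test of the interaction, in log2 units, in these genes. Without Nlrp3 minus with it at 6 months, the values were 1.80 for Cxcl10, 1.19 for Snhg15, 1.30 for Rasgef1b and -4.75 for Mamdc2. At 6 months minus 4 months without Nlrp3, they were 2.01 for Cxcl10, 1.70 for Ccl3, 1.78 for Ccl4, 1.22 for Cxcl16, 1.74 for Bcl2a1b and 0.88 for Bag1. At 12 months minus 6 months without Nlrp3, they were -1.78 for Tnf, -1.56 for Cd83, -1.36 for Nfkbib, -1.07 for Birc3, -1.67 for Marcksl1, -1.11 for Lfng, -2.02 for Il1b, -1.47 for Il1a and -1.40 for Dusp2.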

How the results depend on the processing

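The replicate numbers give no pairs, since no 2 libraries carry the same one. The first title number, which some libraries of both groups share, was instead added as a term (1311 genes called). The count of 1618 genes moved to 584 and 735 within the second title numbers 1 and 2, to 2654 with library totals in place of TMM, and ranged from 1034 to 2036 when 1 library was left out. It was 1311 to 2099 under the other settings of the whole series, 1088 with the 9 libraries alone and 1495 in female libraries. Library totals, female libraries and the fits by RLE or DESeq2 without the library of lowest total were chosen after seeing the data. The cause of these moves was not tested.

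The interaction with Nlrp3 (4 genes) gave 13 with the compared groups alone, 0 with the first title number added, 2 with library totals and 25 with DESeq2 without the library of lowest total, and 0 to 9 when 1 library was left out. The interaction with 4 months (309) gave 44 with RLE size factors, 500 with the compared groups alone, 3 with the first title number, 113 with library totals and 504 with DESeq2 without that library, and 61 to 431 in leave-outs. The interaction with 12 months (11) gave 1 with RLE size factors, 22 with DESeq2, 0 with the compared groups alone, 4 with the first title number and 45 with DESeq2 without that library, and 0 to 27 in leave-outs.

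Within second title number 1 alone, rises called were 8 for MHC class I, 14 for lysosomal, 5 for proton-pump, 5 for proliferation, 3 for NF-kB feedback, 6 for inhibitory-receptor and 0 for stress-response genes, and 0 vessel markers fell. Within number 2 alone they were 6 for interferon-response, 3 for MHC class I, 6 for proton-pump, 2 for proliferation, 3 for NF-kB feedback and 5 for inhibitory-receptor genes. These fits hold fewer libraries.

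App, which was not called, changed sign with RLE size factors (-0.0116), DESeq2 (-0.0115) and library totals (-0.0782). Lfng, also not called at 6 months, ranged from -0.167 to 0.0145 in leave-outs. Creld2 was at -0.0438 with the second title number 1 alone. Of 138 named genes called in the comparison, 121 stayed called in every leave-out. Levels near 0 in 1 group, such as those of Baiap2l2 and Trpm1, limit the precision of their differences.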

Other observations

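Other genes of Trem2 signalling and of Fc and complement receptors were called higher with the transgenes. Of 18 genes of Trem2 signalling, 6 rose and 0 fell, Trem2 and Tyrobp among them. Hcst, which encodes the adaptor DAP10, lay at 9.62 to 21.1 CPM against 4.35 to 6.53 CPM (1.50 ± 0.27, adjusted p = 7.3e-05), and Lat2, a scaffold of immune-receptor signalling, at 157 to 275 CPM against 118 to 147 CPM (0.70 ± 0.13, adjusted p = 0.00017). Of 8 Fc receptor genes tested, 3 rose and 0 fell (3 and 2 with library totals, 1 and 0 with the second title number 2 alone). They were the shared signalling chain Fcer1g (0.69 ± 0.15, adjusted p = 0.00097), the inhibitory receptor Fcgr2b (0.62 ± 0.15, adjusted p = 0.0033) and the activating receptor Fcgr4 (1.05 ± 0.26, adjusted p = 0.0064), and Fcgr4 lost its call without replicate 32 (adjusted p = 0.054). Of 20 complement genes tested, 4 rose and 0 fell (5 and 2 without replicate 29). The receptor gene C3ar1 lay at 686 to 1011 CPM against 408 to 482 CPM (0.84 ± 0.14, adjusted p = 2.4e-05), the integrin subunit Itgb2 at 471 to 553 CPM against 289 to 329 CPM (0.75 ± 0.11, adjusted p = 1.6e-06) and C3 itself at 3.63 to 10.99 CPM against 1.75 to 3.599 CPM (1.51 ± 0.43, adjusted p = 0.016), and C3 lost its call without replicate 32 (adjusted p = 0.091). Lgals3bp, the binding partner of galectin-3 (1.82 ± 0.28, adjusted p = 8.0e-06), and the scavenger receptor Olr1 (2.24 ± 0.59, adjusted p = 0.0088; adjusted p = 0.057 without replicate 27) rose, as did Cstb, a cystatin of the cytosol (1.02 ± 0.18, adjusted p = 6.6e-05), and Anxa5, a phosphatidylserine-binding annexin (0.96 ± 0.18, adjusted p = 0.00022).

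Of 20 genes of the integrated stress and unfolded protein responses, 6 rose and 0 fell, and 2 did with RLE size factors, with library totals or without replicate 33. Sdf2l1, a co-chaperone, was at 105, 117, 123, 97.2 and 132 CPM in APPPS1_NLRP3_6m and 57.2, 75.8, 55.2 and 51.8 CPM in NLRP3_6m (0.93 ± 0.15, adjusted p = 1.3e-05), and its groups did not overlap. Hsp90b1, the chaperone GRP94 (0.48 ± 0.11, adjusted p = 0.0030), and Creld2 (0.41 ± 0.11, adjusted p = 0.011) rose, and Creld2 lost its call without replicate 26 (adjusted p = 0.10) or 33 (adjusted p = 0.091). Of 26 redox genes, 7 rose (4 without replicate 30) and 1 fell. The oxidase subunit Cyba (0.68 ± 0.15, adjusted p = 0.0013), the peroxiredoxin Prdx1 (0.67 ± 0.15, adjusted p = 0.0022) and the sulfiredoxin Srxn1 (1.10 ± 0.27, adjusted p = 0.0049) were among the rises. Of 18 genes of amyloid processing tested, 3 rose and 1 fell (2 and 0 without replicate 27, 31 or 32, and 5 and 2 without replicate 29). Aplp2, a relative of App (0.79 ± 0.18, adjusted p = 0.0026), and the protease Adam9 (0.55 ± 0.12, adjusted p = 0.00084) rose. The beta-secretase Bace1 fell (-0.39 ± 0.13, adjusted p = 0.046) but was not called when replicate 26, 27, 30, 31, 32 or 33 was left out (adjusted p up to 0.12). Of 16 clock genes, Hlf fell (-0.88 ± 0.27, adjusted p = 0.034) but was not called when replicate 26, 28, 29, 30, 32 or 33 was left out (adjusted p up to 0.097). A single fall of 16 is near the 1.96% of all genes. The median of the clock genes was -0.319, 1 of the 16 had a difference above 0, and 4 fell with RLE size factors or without replicate 25, 27 or 31.

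Single markers of other immune cells were called as well. Ighm, an immunoglobulin chain of B cells, lay at 323 to 422 CPM against 226 to 252 CPM (0.55 ± 0.11, adjusted p = 0.00069) and was 1 of 4 B-cell markers tested that rose. The B-cell sum, most of which was Ighm, lay at 342 to 447 CPM against 245 to 278 CPM. Of the 4 B-cell markers tested, 2 had a difference above 0, and the median was 0.0962. Klrb1c, the NK cell receptor NK1.1, lay at 0.828 to 4.25 CPM against 0 to 0.6005 CPM (2.91 ± 0.71, adjusted p = 0.0042). Ms4a4c, a monocyte gene and 1 of 10 monocyte markers that rose, lay at 3.82 to 7.93 CPM against 1.09 to 3.75 CPM (1.33 ± 0.40, adjusted p = 0.027), and its call was lost without replicate 27, 31, 32 or 33 (adjusted p up to 0.12). Stab1, a gene of border macrophages, fell (-0.61 ± 0.20, adjusted p = 0.048) and lost its call without replicate 25, 26, 27, 29, 30, 31 or 33 (adjusted p up to 0.13). The part of these cells in the other results was not tested.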
